A study of Homo sapiens and Mus musculus with 10 samples.

Results

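Accessible chromatin at the antigen receptor loci was described from bulk ATAC-seq peaks of 4 human cell lines. The members are the peaks that overlap 1 of 6 intervals of GRCh38 by at least 1 bp: IGH (chr14:105500000-107043718, immunoglobulin heavy chain), IGK (chr2:88800000-90300000, kappa light chain), IGL (chr22:22000000-22950000, lambda light chain), TRA/TRD (chr14:21600000-22600000, T-cell receptor alpha and delta), TRB (chr7:142250000-142850000, beta) and TRG (chr7:38200000-38400000, gamma). These intervals held 1798 peaks, 1023 of them in the immunoglobulin loci and 775 in the T-cell receptor loci, of 707539 human peaks on the autosomes and X and of 989191 peaks in the whole series. ATAC-seq marks open chromatin by the places where the transposase Tn5 inserts sequencing adapters.

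GM12878 is a B-lymphoblastoid line, made from blood B cells with Epstein-Barr virus. HEK293T comes from embryonic kidney and expresses large T antigen of SV40, HFF1 is a foreskin fibroblast line and K562 is an erythroleukaemia line. Each line has 2 replicates, no treatment is named, and the labels do not say whether replicates came from separate cultures, so p-values measure only the spread between these libraries. No T-cell line was measured. Cells had been frozen and were thawed before nuclei were isolated and tagmented. Each peak list is that of 1 library, and in a bulk library a lower share of cells or chromosome copies with an open site cannot be told apart from a less open site in all of them.

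Antigen receptor genes are assembled in developing lymphocytes. The RAG proteins cut beside a V, a J and in some loci a D segment, at recombination signals that begin with a heptamer next to the segment, and the ends are joined with loss or inversion of the DNA between them. Each V segment has its own promoter. Immunoglobulin V promoters are known for an octamer bound by the OCT factors, and enhancers lie between the J and C segments or 3′ of the C segments. The insulator protein CTCF is known to bind within receptor loci.

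The sequences behind the main patterns of the loci are shown first. The lines below give 200 bases of GRCh38 around the summit of 4 peaks beside IGHV segments, printed on the strand of the gene and therefore running from the end of the V segment into its 3′ flank. Capitals mark matches to a CTCF-type core, the letters CCA, 2 free bases, AG, 2 free bases and GGC, searched on both strands.
IGHV4-61, chr14:106638944-106639143, minus strand: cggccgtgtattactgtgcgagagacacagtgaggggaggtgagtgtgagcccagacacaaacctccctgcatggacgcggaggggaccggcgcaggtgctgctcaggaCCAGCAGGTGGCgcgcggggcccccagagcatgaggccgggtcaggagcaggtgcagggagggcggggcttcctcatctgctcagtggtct
IGHV3-72, chr14:106790539-106790738, minus strand: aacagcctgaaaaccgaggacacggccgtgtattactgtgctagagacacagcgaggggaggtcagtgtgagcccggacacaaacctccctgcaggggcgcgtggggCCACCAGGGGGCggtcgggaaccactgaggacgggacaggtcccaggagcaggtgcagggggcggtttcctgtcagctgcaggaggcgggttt
IGHV4-4, chr14:106011719-106011918, minus strand: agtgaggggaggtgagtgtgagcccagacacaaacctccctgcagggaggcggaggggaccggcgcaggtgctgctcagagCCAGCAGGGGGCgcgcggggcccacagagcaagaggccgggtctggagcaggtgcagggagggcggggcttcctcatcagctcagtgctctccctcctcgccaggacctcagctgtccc
IGHV3-30, chr14:106334928-106335127, minus strand: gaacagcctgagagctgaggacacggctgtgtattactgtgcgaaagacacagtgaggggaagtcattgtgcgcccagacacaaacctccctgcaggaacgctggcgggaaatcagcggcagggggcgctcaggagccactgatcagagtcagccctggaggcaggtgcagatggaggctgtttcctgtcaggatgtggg
The first 3 hold 1 match each, and the IGHV3-30 window holds none of these letters. The summits lay 75, 55, 103 and 54 bases after the annotated end of the segment.

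The next lines give 200 bases around the summits of peaks away from the IGHV segments. The peak 3′ of IGKC was called in all 4 lines and the TRAV13-1 peak lay 5′ of its V segment, and capitals again mark the CTCF-type core in these.
3′ of IGKC, chr2:88831758-88831957, minus strand: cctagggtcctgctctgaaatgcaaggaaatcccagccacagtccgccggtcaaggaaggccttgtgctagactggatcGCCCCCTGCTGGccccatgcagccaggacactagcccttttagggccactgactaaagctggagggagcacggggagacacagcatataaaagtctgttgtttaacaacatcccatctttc
TRAV13-1, chr14:21868532-21868731, plus strand: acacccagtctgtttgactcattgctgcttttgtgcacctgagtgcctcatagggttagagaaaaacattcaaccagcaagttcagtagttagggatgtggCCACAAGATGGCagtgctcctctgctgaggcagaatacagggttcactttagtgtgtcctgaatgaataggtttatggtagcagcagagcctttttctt
The following peaks were found in GM12878 alone, and capitals mark the E-box CAGGTG on either strand, a site of the E2A family.
3′ of IGHA1, chr14:105700999-105701198, minus strand: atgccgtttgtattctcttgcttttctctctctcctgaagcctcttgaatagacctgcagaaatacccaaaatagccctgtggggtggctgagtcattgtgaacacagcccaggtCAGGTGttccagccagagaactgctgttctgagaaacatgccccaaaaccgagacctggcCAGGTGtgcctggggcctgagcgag
IGHJ6 to IGHM, chr14:105862069-105862268, minus strand: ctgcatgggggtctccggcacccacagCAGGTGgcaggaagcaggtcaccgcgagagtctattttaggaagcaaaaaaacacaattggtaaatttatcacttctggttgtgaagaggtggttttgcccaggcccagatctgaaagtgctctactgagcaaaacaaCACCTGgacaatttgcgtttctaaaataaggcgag
TRGJ2 to TRGC2, chr7:38249980-38250179, minus strand: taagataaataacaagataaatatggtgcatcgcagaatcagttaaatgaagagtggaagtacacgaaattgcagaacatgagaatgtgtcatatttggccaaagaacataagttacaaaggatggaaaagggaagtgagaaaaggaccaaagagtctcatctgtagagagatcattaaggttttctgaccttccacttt
Both IGH windows hold 2 E-boxes and the TRG window holds none.

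The 100 bases before 5 immunoglobulin V segments and 1 V pseudogene (IGHV4-55) with peaks, on the strand of the segment (minus for IGH, plus for the others), show the promoter octamer, ATGCAAAT on either strand, in capitals.
IGHV4-61, chr14:106639658-106639757: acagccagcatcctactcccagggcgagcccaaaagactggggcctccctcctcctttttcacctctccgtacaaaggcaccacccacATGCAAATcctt
IGHV3-72, chr14:106791234-106791333: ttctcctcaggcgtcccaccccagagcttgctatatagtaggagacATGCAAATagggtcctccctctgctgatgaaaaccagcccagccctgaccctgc
IGHV4-55, chr14:106606552-106606651: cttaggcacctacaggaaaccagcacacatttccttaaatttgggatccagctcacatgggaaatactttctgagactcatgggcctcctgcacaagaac
IGLV1-51, chr22:22322372-22322471: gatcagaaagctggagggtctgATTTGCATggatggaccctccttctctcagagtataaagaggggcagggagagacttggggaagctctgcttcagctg
IGLV1-47, chr22:22357639-22357738: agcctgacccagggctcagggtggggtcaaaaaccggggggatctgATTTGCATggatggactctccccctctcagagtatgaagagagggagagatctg
IGKV6D-41, chr2:90069562-90069661: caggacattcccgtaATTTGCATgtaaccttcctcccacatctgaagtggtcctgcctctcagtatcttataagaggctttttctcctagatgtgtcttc
IGHV4-55 has no octamer in these 100 bases and the other 5 have 1 each.

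The lines were first checked against promoter peaks of marker genes, where a promoter peak lies within 1 kb of any annotated start of the gene. Of 7 B-cell genes, 7 had a peak in both GM12878 libraries, and CD79A, CD79B, MS4A1 and BLK, genes of the B-cell surface and of receptor signalling, had one in no other library. Of 19962 protein-coding genes, 71.9% had such a peak in both GM12878 libraries, so the full count alone is little above that share. Of 8 T-cell genes, 4 had a peak in both GM12878 libraries, 1 in HEK293T (67.8% of all protein-coding genes), 2 in HFF1 (76.2%) and 2 in K562 (70.4%), and CD3E and CD2 had none in any library. GATA1 and TAL1 were marked in both libraries of K562 alone, COL3A1 in HFF1 alone, and PAX2 and LHX1 in HEK293T alone. COL1A2, the other fibroblast gene listed, had a peak in 7 of 8 libraries and did not separate the lines.

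Among the proteins that cut and join receptor genes, DNTT, which adds bases at the joins, had no promoter peak in any library. RAG1 and RAG2, which cut the DNA, had a promoter peak in all 8 libraries, but windows of TRAF6 and IFTAP, respectively, share it, and LIG4, XRCC4, XRCC6 and PRKDC share theirs with other genes as well, so those peaks cannot be assigned. Of 5 genes of the pre-receptors, none was marked in both libraries of GM12878, HEK293T or K562, and PTCRA was marked in both of HFF1. Of 20 genes for factors that bind receptor enhancers and promoters, 20 were marked in GM12878, 15 in HEK293T, 18 in HFF1 and 16 in K562, where 71.9%, 67.8%, 76.2% and 70.4% of all protein-coding genes were marked, so the counts in HEK293T and K562 are not far from those shares. Among these factors, SPI1 was marked in GM12878 and K562 and IRF4, SPIB and RUNX3 in GM12878 and HFF1.

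Peak numbers differed between loci and lines, and replicates were close. The 6 loci together held 351 and 354 peaks in the GM12878 libraries, 172 and 178 in HEK293T, 132 and 133 in HFF1, and 256 and 222 in K562. The libraries themselves held 101704 and 103715 peaks in GM12878, 52438 and 52137 in HEK293T, 127359 and 120344 in HFF1, and 78601 and 71241 in K562, so loci were compared by relative density, the peaks per Mb in the locus over the peaks per Mb of the same library. The lists carry no read numbers, and depth was read from the most common background level recovered from fold and p: 1.71 and 1.73 in GM12878, 0.465 and 0.466 in HEK293T, 2.43 and 2.06 in HFF1, and 2.21 and 1.97 in K562.

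**Figure D1:**
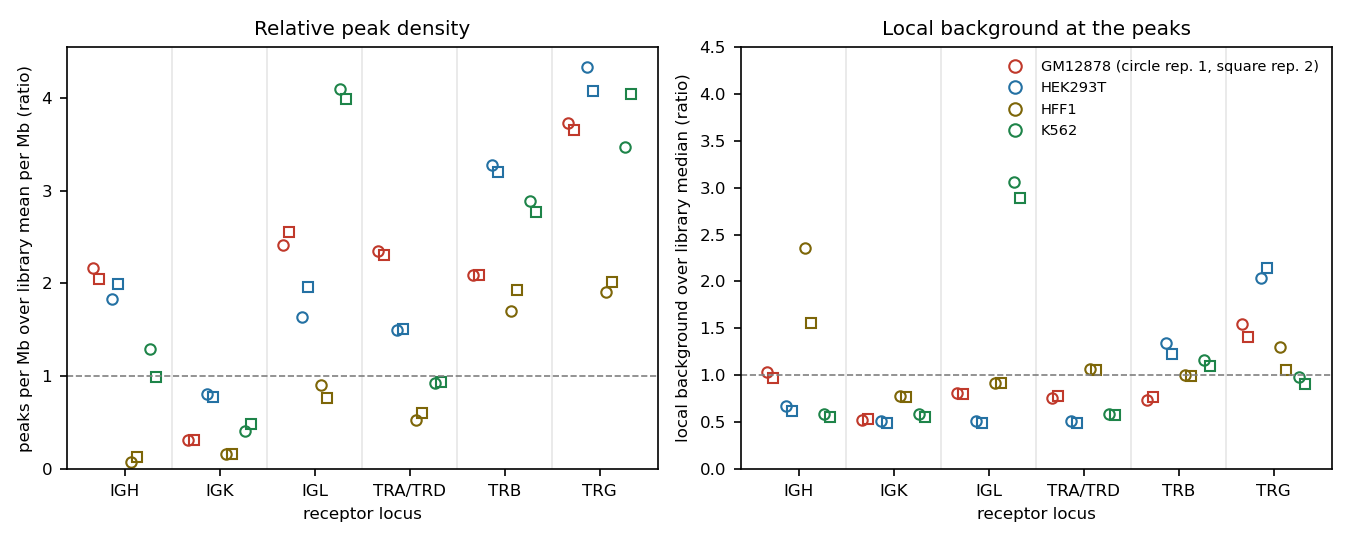
Left, relative peak density (peaks per Mb over the library's own mean) in 6 loci, with 1 point per library. Right, the median local background at the peaks over the median of all peaks of that library. GM12878 is highest at TRA/TRD, and at IGH lies just above HEK293T (2.04 against 2.00 at the closest). HFF1 lies near 0 at IGH, and K562 is highest at IGL, where its local background ratio is 3.06 and 2.89.

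Line explained most of the spread in relative density at every locus. Eta squared, the part of the variance that lies between lines, was 0.986 at IGH, 0.993 at IGK and at IGL, 0.999 at TRA/TRD and 0.986 at TRB. In an exact one-sided permutation test over all splits of 8 libraries into 4 pairs, each of these gave p = 0.00952, the smallest p possible, and an adjusted p of 0.0229 over 12 tests (Benjamini-Hochberg). TRG had an eta squared of 0.966 and an adjusted p of 0.0816 in the same exact test. GM12878 against the 6 other libraries was tested over all 28 choices of 2 libraries, where the smallest two-sided exact p is 0.0357 and no adjusted p reached 0.05.

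At TRA/TRD, 79 and 79 peaks were found in GM12878, 26 and 26 in HEK293T, 22 and 24 in HFF1, and 24 and 22 in K562. Both GM12878 libraries lay above all others. The relative density was 2.33 ± 0.03 (SD, n = 2) in GM12878, 1.51 ± 0.01 in HEK293T, 0.564 ± 0.057 in HFF1 and 0.931 ± 0.007 in K562. GM12878 exceeded the other lines by 1.33 (exact permutation p = 0.0357, adjusted p = 0.0714), in 2 of 2 libraries.

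At IGH, GM12878 had 112 and 108 peaks, HEK293T 49 and 53, HFF1 5 and 8, and K562 52 and 36. The relative density was 2.10 ± 0.08 (SD, n = 2) in GM12878, 1.92 ± 0.11 in HEK293T, 0.104 ± 0.038 in HFF1 and 1.15 ± 0.22 in K562. The lower GM12878 library stood at 2.04 and the highest of the other libraries, one of HEK293T, at 2.00. The difference of GM12878 from the other 6 libraries was 1.05 (exact permutation p = 0.0714, adjusted p = 0.107), and without HFF1 it was 0.573. With peaks near start sites of other genes left out it was 1.14, with an exact permutation p of 0.393. In that setting both HEK293T libraries lay above both GM12878 libraries, so the larger difference does not place GM12878 highest. The whole lists fell to 74430 and 76030 peaks in GM12878 and to 31692 and 31055 in HEK293T. At IGH the setting removed 9 and 6 peaks in GM12878 and 4 and 4 in HEK293T. Without HFF1 the eta squared at IGH was 0.939, with an adjusted p of 0.114 in the exact test. Its smallest p is then 0.0667, so it could not pass at 0.05. At the few HFF1 peaks of IGH the local background was 2.36 and 1.56 times the library median, and its part in the low count was not tested.

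IGL was the densest immunoglobulin locus in K562. K562 had 101 and 89 peaks there, GM12878 77 and 83, HEK293T 27 and 32, and HFF1 36 and 29. The relative density was 4.04 ± 0.08 (SD, n = 2) in K562, 2.48 ± 0.10 in GM12878, 1.80 ± 0.22 in HEK293T and 0.835 ± 0.094 in HFF1. At the K562 peaks of IGL the median local background was 11.5 and 10.3, 3.06 and 2.89 times the median over all peaks of those libraries, and the median pileup was 60.0 and 62.0 against 30.0 and 30.0 over all peaks. Their median fold was 4.60 and 5.20, below the library medians of 6.23 and 6.40. In the other 6 libraries the local background at IGL was between 0.493 and 0.917 of the library median. The part of this raised background in the K562 count was not tested. Without K562 the eta squared at IGL was 0.976, with an adjusted p of 0.133 in the exact test. The smallest p is then 0.0667, so this test could not pass at 0.05.

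IGK was sparse in every line. GM12878 had 16 and 16 peaks, HEK293T 21 and 20, HFF1 10 and 10, and K562 16 and 17. The highest relative density was 0.792 ± 0.024 (SD, n = 2) in HEK293T and the lowest was 0.163 ± 0.007 in HFF1, with GM12878 at 0.315 ± 0.004. The kappa V segments lie in proximal and distal clusters that are near-copies of each other in opposite order. How reads that fit both copies were treated is not given in the sources used here, so low values at IGK and at other repeated V segments are uncertain.

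The smaller T-cell receptor loci were dense in all lines. At TRB, peak numbers were 42 and 43 in GM12878, 34 and 33 in HEK293T, 43 and 46 in HFF1, and 45 and 39 in K562. Relative density at TRB was 3.24 ± 0.06 (SD, n = 2) in HEK293T, 2.83 ± 0.09 in K562, 2.09 ± 0.01 in GM12878 and 1.82 ± 0.16 in HFF1. At TRG, peak numbers were 25 and 25 in GM12878, 15 and 14 in HEK293T, 16 and 16 in HFF1, and 18 and 19 in K562. Relative density at TRG was 4.20 ± 0.19 in HEK293T, 3.76 ± 0.40 in K562, 3.69 ± 0.05 in GM12878 and 1.96 ± 0.08 in HFF1. The local background at TRG was 2.03 and 2.14 times the library median in HEK293T and 1.55 and 1.41 times in GM12878. HEK293T is the shallowest pair of libraries with the fewest peaks in all, and the part of depth in its high relative densities was not tested.

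**Figure D2:**
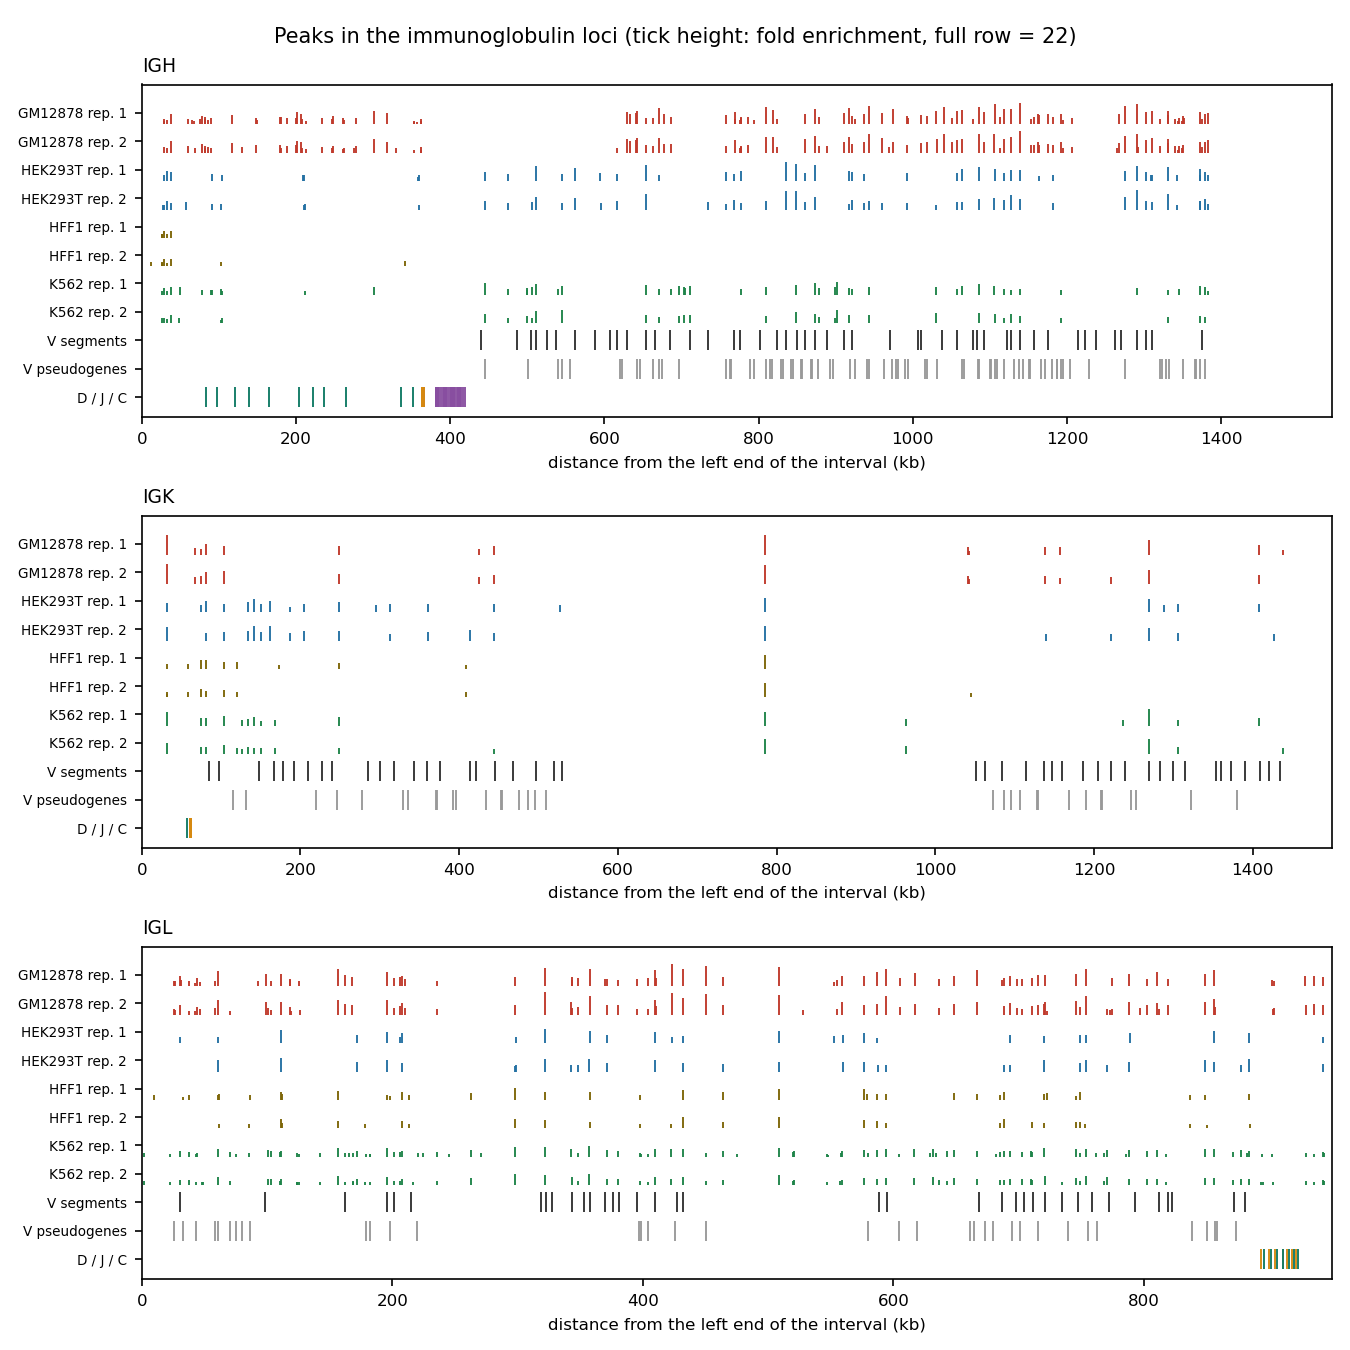
Peaks of the 8 libraries along IGH, IGK and IGL by distance from the left end of each interval in kb, with tick height for fold enrichment (a full row is 22), above the annotated segments. The GM12878 rows of IGH are empty over the D segments and the nearest V segments, the HFF1 rows are empty over all V segments of IGH, and the K562 rows of IGL hold many short ticks.

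Peaks that overlapped between libraries were merged into 243200 regions over the genome, 568 of them in the 6 loci. Here a called region is one with a peak of each replicate, and a region is specific to a line if the 6 libraries of the other lines lack a peak there. In GM12878, 319 of 568 regions (56.2%) were called against 36.3% of all regions, in HEK293T 144 (25.4%) against 16.5%, in HFF1 105 (18.5%) against 42.1%, and in K562 196 (34.5%) against 24.8%. Regions called in all 4 lines numbered 45 (7.92%), close to the 8.53% of all regions.

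Regions specific to GM12878 were concentrated at 2 loci. They numbered 59 of 153 regions at IGH (38.6%) and 40 of 96 at TRA/TRD (41.7%), where 14.7% of all regions were specific to GM12878. At the other loci the numbers were 5 of 42 at IGK, 21 of 153 at IGL, 7 of 89 at TRB and 7 of 35 at TRG. Summed over loci, 85 of 348 immunoglobulin regions and 54 of 220 T-cell receptor regions were specific to GM12878, 24.4% and 24.5%. With lists limited to the 50000 strongest peaks of each library, these shares were 13.7% and 13.6% against 12.02% of all regions. Without HFF1 the immunoglobulin share was 25.8% and the T-cell receptor share 33.3%, against 26.3%. With pileups thinned to the shallowest library the shares were 19.4% and 21.2% against 13.02%.

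Among the other lines, HEK293T and K562 had shares of their own regions near those over all regions, and HFF1 had a lower share. HEK293T had 13 (2.29% against 1.78% of all regions), HFF1 29 (5.11% against 21.2%) and K562 32 (5.63% against 6.31%). Of the 29 in HFF1, 14 were at TRB, and the strongest of these lay 807 bp from TRBV10-3 with folds of 12.1 and 14.1. Of the 32 in K562, 19 were at IGL, with a median lower fold of 4.13.

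In these loci, regions specific to GM12878 were weaker than the regions it shared. The same comparison was not made over all regions, so the difference cannot be called particular to these loci. At IGH the median of the lower replicate fold was 6.27 over the 59 specific regions and 12.1 over the 34 regions called in GM12878 and at least 1 more line. At TRA/TRD the medians were 6.32 over 40 and 9.15 over 25, and at IGL 6.28 over 21 and 9.83 over 49. The strongest GM12878-specific region of IGH lay 1335 bp from IGHV3-48 (chr14:106539679-106540305) with folds of 16.3 and 18.2, and that of TRA/TRD lay 1791 bp from TRAV31 (chr14:22175007-22175482) with 11.6 and 11.9. At IGL it was the region over IGLV8-61, with folds of 11.6 and 11.996.

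No library had a peak in the span of the IGH D segments (54.0 kb) or the J segments (2.48 kb). With at most 4.67% of 1-kb genome windows marked in a line, the lack of a peak in a span as short as that of the J segments is no result, and whether recombination has removed DNA there in GM12878 was not tested. The longest stretch of IGH without a GM12878 peak in either replicate measured 253.6 kb (chr14:105862890-106116527) and ran from IGHJ6 past the 27 D segments to IGHV5-10-1, with 9 V segments and 5 V pseudogenes. In the same stretch HEK293T had 7 and 7 peaks, K562 8 and 6, and HFF1 none. Of the 10 merged regions there, 6 were called in HEK293T and 6 in K562, 4 of them in both lines.

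The region at IGHV4-4, the V segment whose sequence is printed above, was among those 4. Its folds were 14.9 and 12.3 in HEK293T and 10.6 and 11.5 in K562, and no GM12878 or HFF1 library had a peak in it. The region at IGHV3-7 was specific to HEK293T, with folds of 12.7 and 11.1. Beyond the stretch, the region at IGHV3-13 was specific to GM12878 with folds of 11.9 and 13.4.

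HFF1 had no peak over the V segments of IGH. Its longest empty stretch there measured 1202 kb and reached the end of the interval, over all 49 V segments and 78 V pseudogenes, where GM12878 had 80 and 77 peaks, HEK293T 42 and 44, and K562 40 and 29. Of the merged regions in that stretch, 36 were called in at least 2 other lines. The strongest HFF1-specific region of the interval lay at TMEM121, a gene beyond the constant segments, with folds of 4.07 and 3.92.

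Long stretches without peaks were also seen at other loci. HFF1 had no peak over the first 601.1 kb of TRA/TRD, which hold 39 V segments and 7 V pseudogenes, where GM12878 had 30 and 31 peaks, HEK293T 16 and 17, and K562 10 and 9. HEK293T and K562 shared an empty stretch near TRAV26-2 to TRAV39, of 112.9 and 113.0 kb, in which GM12878 had 10 and 11 peaks by the HEK293T limits. At IGK, HEK293T had 13 and 12 peaks in the proximal V cluster, against 4 and 4 in GM12878, 5 and 3 in HFF1, and 7 and 9 in K562. The distal cluster had 4 and 5 peaks in GM12878 and in HEK293T, 4 and 2 in K562, and none in HFF1.

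**Figure D3:**
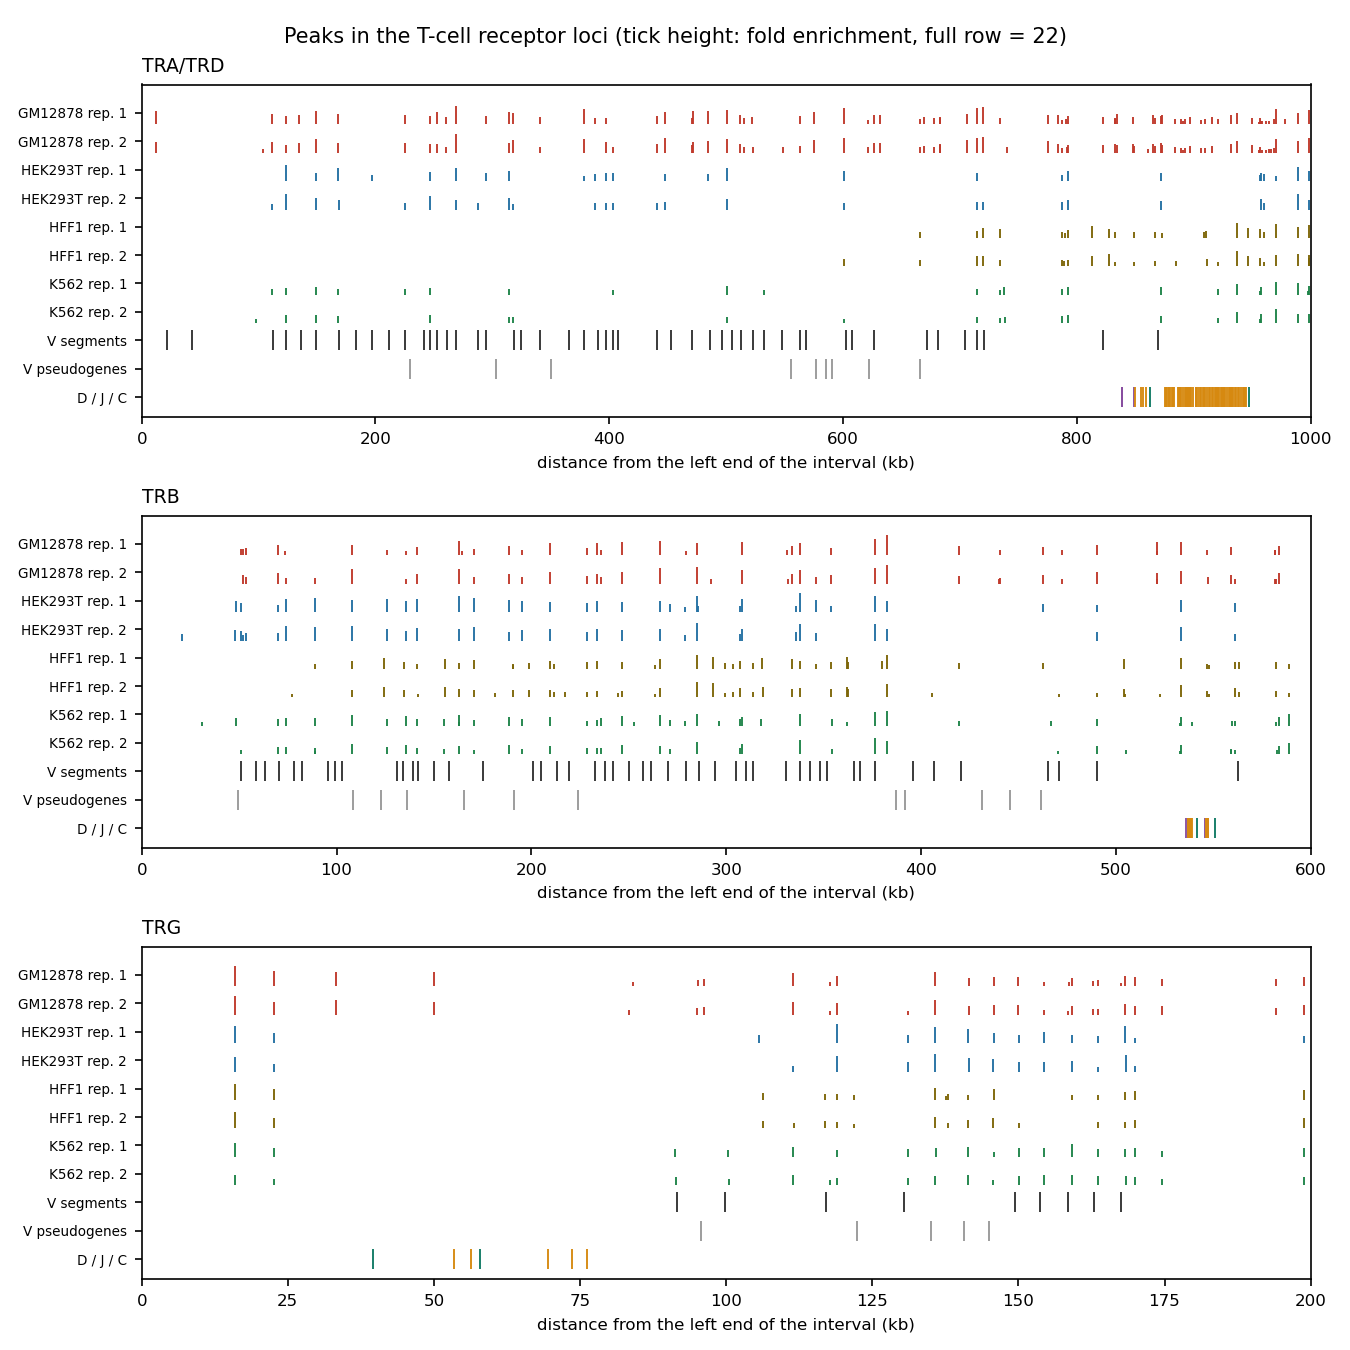
Peaks of the 8 libraries along TRA/TRD, TRB and TRG by distance from the left end of each interval in kb, with tick height for fold enrichment (a full row is 22), above the annotated segments. GM12878 ticks run through the J segments of TRA/TRD, HFF1 is empty over the first 601.1 kb, and TRB and TRG have ticks at shared positions in all lines.

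Peaks were next counted by segment type. Of the merged regions, 56 of 153 at IGH, 47 of 153 at IGL, 28 of 96 at TRA/TRD, 15 of 89 at TRB, 18 of 35 at TRG and 4 of 42 at IGK lay over V segments or V pseudogenes, so at the loci other than TRG most regions lay elsewhere. A segment was counted when a peak of both replicates overlapped its span or 250 bp on either side. In GM12878, 19 of 49 IGH V segments, 15 of 37 IGL V segments, 19 of 49 TRA/TRD V segments and 6 of 9 TRG V segments were marked, against 1 of 44 at IGK and 5 of 48 at TRB. For scale, 3.98% of the 1-kb windows of the genome had a peak of both GM12878 libraries, and 8.17% of those of IGH, 10.6% of IGL, 9.30% of TRA/TRD and 17.0% of TRG.

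The other lines also had marked V segments. HEK293T had 16 of 49 at IGH, 2 of 44 at IGK, 6 of 37 at IGL, 8 of 49 at TRA/TRD, 5 of 48 at TRB and 7 of 9 at TRG, with 1.78% of genome windows marked. K562 had 7, 1, 13, 5, 3 and 9 in the same order, with 2.73% of windows marked. HFF1 had 0, 0, 5, 2, 5 and 3, with 4.67% of windows marked. Over both kinds of locus the V shares of GM12878 were 26.9% for immunoglobulin (35 of 130) and 28.3% for T-cell receptor segments (30 of 106).

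V pseudogenes were marked as well, at 20 of 78 in IGH and 9 of 36 in IGL in GM12878. In IGH they included 8 of 17 pseudogenes of clan III and 2 of 21 of clan II. By family, 7 of the 9 IGHV4 members (genes and pseudogenes) were marked in GM12878, 8 in HEK293T and 7 in K562. The IGHV3 family had 19 of 48 marked in GM12878, 14 in HEK293T and 6 in K562, and the IGHV1 family 2 of 15 in GM12878 and none in the other lines. At IGL, the IGLV1 family had 6 of 8 marked in GM12878, 4 in HEK293T, 3 in HFF1 and 6 in K562. Members of a family share sequence and are not independent.

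Many of the strongest V peaks of GM12878 were shared with other lines. IGHV4-61 had folds of 20.5 and 21.2 in GM12878, 11.1 and 9.93 in HEK293T, and 5.92 and 6.74 in K562. IGHV3-72 had folds of 19.4 and 18.6 in GM12878, 14.8 and 19.1 in HEK293T, and 6.86 in K562 replicate 1 alone. IGKV6D-41, the V segment of IGK marked in GM12878, had 14.4 and 13.5 there, 12.6 and 12.2 in HEK293T, and 16.2 and 14.6 in K562. IGHV3-30 had folds of 18.1 and 17.7 in HEK293T and no peak in any other library.

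Among the T-cell receptor V segments, TRAV13-1 led in GM12878 with folds of 17.9 and 18.1 and was also marked in HEK293T with 12.3 and 9.55. TRBV20-1 had 15.8 and 15.3 in GM12878, 16.1 and 16.3 in HEK293T, and 13.2 and 15.8 in K562, with no HFF1 peak. TRGV7, a V pseudogene, was marked in all 8 libraries, with folds of 14.3 and 13.8 in GM12878, 15.6 and 17.1 in HEK293T, 11.8 and 10.8 in HFF1, and 9.05 and 8.85 in K562. Of the 14 TRG V segments and pseudogenes, 13 were marked in at least 1 line and 5 in all 4.

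Of the 276 immunoglobulin V segments and pseudogenes, 78 were marked in at least 1 line, and 25 of these in GM12878 alone, 4 in HEK293T alone and 5 in K562 alone. GM12878 shared 27 with HEK293T and 29 with K562. Of the 132 T-cell receptor V segments and pseudogenes, 45 were marked in at least 1 line and 14 in GM12878 alone.

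The side of the V segment on which the peak lay differed between loci. At IGH the summit lay after the annotated end, on the side of the recombination signal, at 38 of 42 and 38 of 41 marked V segments and pseudogenes in the GM12878 libraries, at 28 of 28 and 29 of 30 in HEK293T, and at 24 of 24 and 19 of 19 in K562. The median summit lay between 535 and 589.5 bases after the annotated start. At TRA/TRD it lay before the start, on the promoter side, at 20 of 22 and 20 of 23 in GM12878, 10 of 11 and 13 of 13 in HEK293T, and 8 of 8 and 6 of 6 in K562. TRB had summits before the start at 7 of 8 and 4 of 5 in GM12878, 5 of 5 and 6 of 6 in HEK293T, and 4 of 4 and 6 of 6 in K562. At IGL they lay before the start at 16 of 26 and 14 of 27 in GM12878 and at 19 of 25 and 18 of 20 in K562. The contrast of IGH with the T-cell receptor loci was seen in GM12878, HEK293T and K562, and it was not tested, since V segments of a family share sequence.

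**Figure D4:**
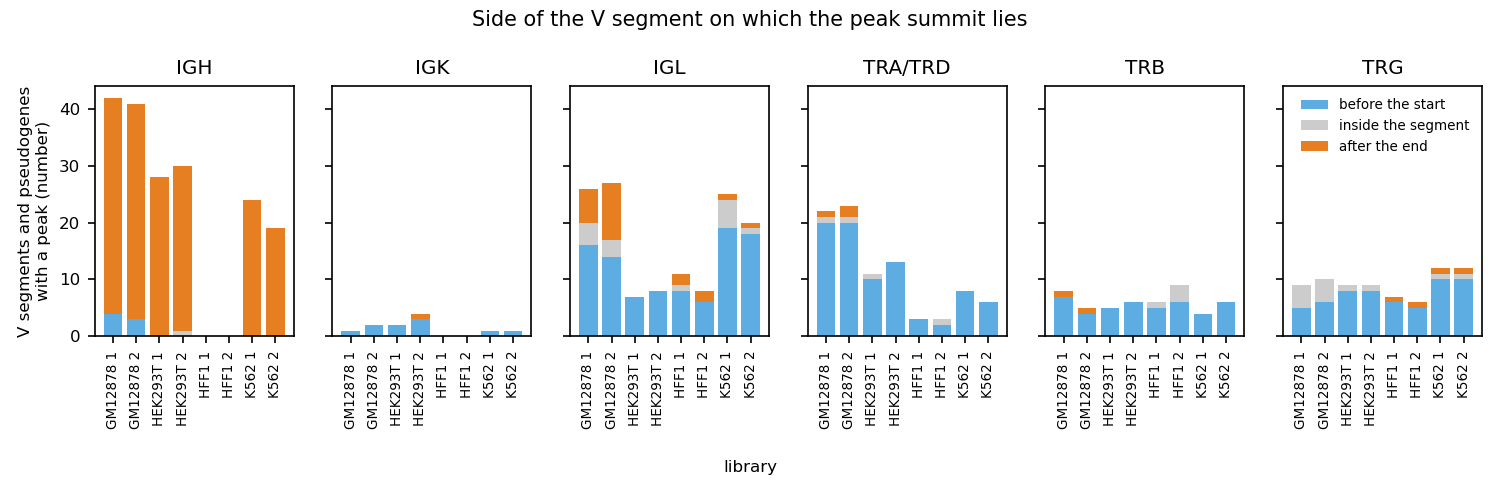
Number of V segments and pseudogenes with a peak in each library, by locus, split by whether the summit of the strongest peak lay before the annotated start, inside the segment or after its end. IGH bars are almost wholly after the end, as in 28 of 28 in HEK293T replicate 1, while TRA/TRD bars are almost wholly before the start.

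The CTCF-type core was more frequent in called regions of IGH, and of some other receptor loci, than in all called regions of the same line. In windows of 300 bp at region centres, it was found in 27 of 42 HEK293T called regions of IGH (64.3%) against 13.8% of all HEK293T called regions, in 21 of 36 K562 regions (58.3%) against 10.8%, and in 31 of 100 GM12878 regions against 9.42%. At TRG it was found in 8 of 13 HEK293T, 8 of 18 K562 and 9 of 23 GM12878 called regions, at IGK in 6 of 16, 4 of 14 and 6 of 15, and at TRB in 10 of 30, 11 of 33 and 10 of 38, so the high shares are not particular to IGH. The core was in 5.27% of all merged regions. By calling pattern, 27 of 40 IGH regions called in at least 2 lines held it (67.5%) and 8 of the 59 specific to GM12878 (13.6%). At TRA/TRD the corresponding counts were 6 of 27 and 2 of 40, at IGL 10 of 53 and 0 of 21. This core was chosen after the sequences had been seen. A longer and stricter CTCF core was found in 3 of the 319 GM12878 called regions, all at TRA/TRD, against 0.421% of all GM12878 called regions. Of the 153 merged regions of IGH, 0 held this stricter core.

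Within 200 bases after the segment, 25 of the 127 IGH V segments and pseudogenes held the CTCF-type core, at a median of 64.0 bases after V segments and 65.5 after V pseudogenes. HEK293T had peaks at 11 of 13 V segments and 9 of 12 V pseudogenes with it, and at 5 of 36 and 2 of 66 without it. K562 had peaks at 6 of 13 and 7 of 12 with it, and at 1 of 36 and 5 of 66 without it. GM12878 had peaks at 7 of 13 and 8 of 12 with it, and at 12 of 36 and 12 of 66 without it. No V segment of IGK or of the T-cell receptor loci held the core in these 200 bases. At IGL, 2 of 37 V segments held it, and 0 of these 2 were marked in any line. GM12878 had peaks at 15 of the 35 IGL V segments without it. A match is a description of letters and not evidence that the factor was bound.

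**Figure D5:**
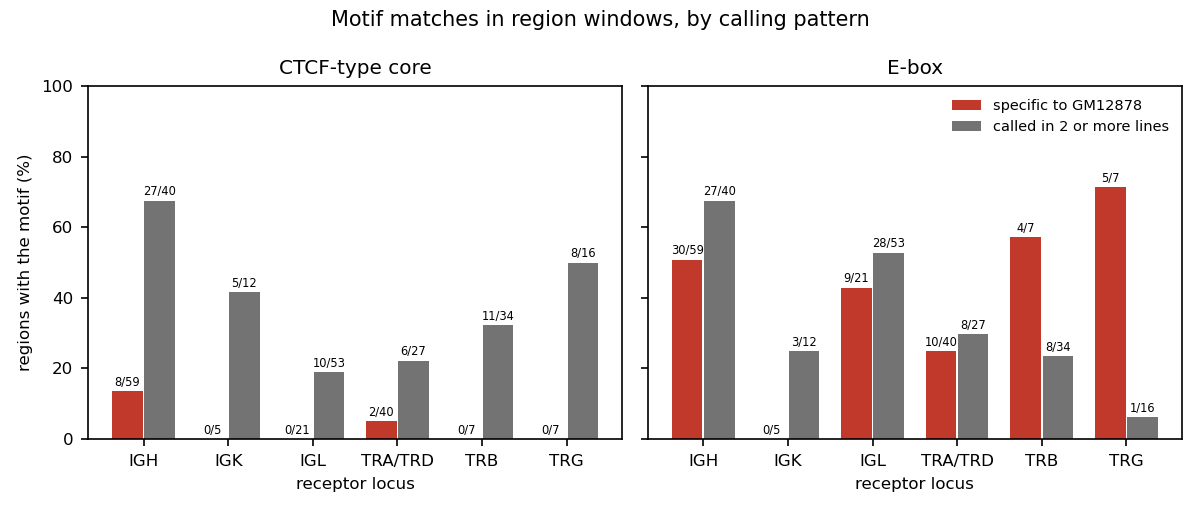
Share of regions with a CTCF-type core (left) or an E-box (right) in 300 bp at the region centre, for regions specific to GM12878 and regions called in at least 2 lines, with counts above the bars. At IGH the CTCF-type core is in 27 of 40 shared and 8 of 59 GM12878-specific regions.

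E-boxes were frequent at IGH in every line that had V peaks. CAGGTG was found in 57 of 100 GM12878 called regions of IGH, 27 of 42 in HEK293T and 20 of 36 in K562, against 25.5%, 24.7% and 24.7% of all called regions of those lines. At IGL it was in 37 of 71, 10 of 23 and 36 of 77 in the same order, so the high shares are not particular to IGH. The V segments and pseudogenes themselves carry these letters, at 87 of 127 in IGH, 40 of 76 in IGK, 56 of 73 in IGL, 21 of 58 in TRA/TRD, 43 of 60 in TRB and 13 of 14 in TRG. Among IGH regions, 43 of 56 over V segments held an E-box (76.8%) and 36 of 97 elsewhere (37.1%). At TRG the counts were 5 of 18 and 5 of 17, so a high share in the segments did not go with a high share in the regions over them. An E-box can lie within a CTCF-type core, as in the IGHV4-61 sequence, so the counts of the 2 motifs are not separate. The kappaB site, bound by the NF-kappaB factors, was found in 0 of the 319 GM12878 called regions, against 0.488% of all GM12878 called regions. At so low a share, the lack of a match in 319 regions is no result.

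The promoter octamer separated immunoglobulin from T-cell receptor V segments. In the 250 bases before the segment it was found at 41 of 49 IGH, 27 of 44 IGK and 28 of 37 IGL V segments, and at 2 of 106 T-cell receptor V segments, against 318 of 19970 protein-coding genes (1.59%). Immunoglobulin V pseudogenes held it at 39 of 146. The heptamer CACAGTG followed within 10 bases of the end at 102 of 130 immunoglobulin V segments and 20 of 146 pseudogenes.

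GM12878 peaks were found at 26 of 96 immunoglobulin V segments with the octamer and at 9 of 34 without it. In HEK293T they were found at 22 of 96 with and 2 of 34 without, and in K562 at 18 of 96 with and 3 of 34 without. A peak on either side of a segment counted, while the octamer was searched only before the segment. IGH supplied 14 of the 26 marked octamer segments in GM12878, 14 of the 22 in HEK293T and 6 of the 18 in K562. At IGH most summits lay after the segment, so these counts do not describe promoters alone. Segments with and without the octamer belong to different families and loci, and these counts were not tested.

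The enhancer stretches between J and C segments were next compared. Between IGHJ6 and IGHM, where the intronic heavy chain enhancer is known to lie, GM12878 had 3 and 2 peaks with top folds of 5.09 and 5.89, HEK293T 2 and 1 with 5.57 and 4.42, and HFF1 and K562 none. The GM12878 summit whose sequence is printed above and the HEK293T peak lay in different regions (chr14:105861980-105862452 and chr14:105859804-105860233). In the 40 kb 3′ of IGHA1, GM12878 had 5 and 5 peaks with top folds of 11.6 and 11.1, and no other library had any. In the 40 kb 3′ of IGHA2, GM12878 had 7 and 5 peaks, HEK293T 0 and 1, K562 2 and 1, and HFF1 none. Stretches 3′ of IGHA1 and IGHA2 are known for the 3′ regulatory regions of the heavy chain locus, which are near-copies of each other.

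Constant segments of IGH were marked in GM12878 alone, at IGHA1 with folds of 9.67 and 9.95, IGHA2 with 4.56 and 5.25, and IGHM with 2.87 and 2.60. The span of the IGH C segments held 23 and 24 peaks in GM12878, 4 and 4 in HEK293T, 0 and 2 in HFF1, and 6 and 2 in K562. IGHD had a peak in HFF1 replicate 2 alone.

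The kappa and lambda landmarks differed from those of IGH. No GM12878 library had a peak between IGKJ5 and IGKC, where the intronic kappa enhancer is known to lie, and HFF1 had 1 in each library with folds of 5.12 and 4.85. The region 3′ of IGKC whose sequence is printed above was called in all 4 lines, with folds of 19.4 and 19.2 in GM12878, 8.96 and 12.9 in HEK293T, 4.93 and 4.78 in HFF1, and 13.2 and 11.2 in K562. In the 27.0 kb 3′ of IGLC7, GM12878 had 3 and 3 peaks with top folds of 9.83 and 10.0, K562 4 and 4 with 4.96 and 5.20, HEK293T 1 and 1, and HFF1 none.

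The alpha and delta constant segments had peaks in the B-cell line. TRDC had folds of 8.62 and 8.36 and TRAC 6.35 and 7.30 in GM12878, with no peak in the other lines. The J span of TRA/TRD held 15 and 15 peaks in GM12878, 1 and 1 in HEK293T, 5 and 5 in HFF1, and 3 and 3 in K562, and 6 of 60 J segments were marked in GM12878, among them TRAJ12 with 9.26 and 8.44. Between TRDJ3 and TRDC only GM12878 replicate 2 had a peak, with a fold of 4.04. Between TRAJ1 and TRAC the peaks were those of HFF1, with folds of 9.98 and 10.4. In the 40 kb 3′ of TRAC, where the alpha enhancer is known to lie, GM12878 had 10 and 9 peaks, HEK293T 5 and 3, HFF1 4 and 4, and K562 4 and 4. The starts of DAD1 and ABHD4, which lie beyond TRAC, had peaks in all 8 libraries.

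At TRG, the stretch between TRGJ2 and TRGC2 held a GM12878 peak with folds of 14.01 and 12.1 and no peak of another line, while the stretch between TRGJ1 and TRGC1, its near-copy, held none in any library. A GM12878-specific region 3′ of TRGC2 (chr7:38232408-38233478) had folds of 13.8 and 13.96. Farther 3′, a region at chr7:38215564-38216225 was called in all 4 lines, with folds from 9.77 to 19.6 over the 8 libraries. At TRB, 1 region over the TRBJ2 cluster was marked in GM12878 with folds of 5.51 and 6.19 and in HFF1 with 5.28 and 6.12 and overlapped the 8 and 7 of 14 TRB J segments counted in those lines. No library had a peak between TRBJ1-6 and TRBC1. In the 9.84 kb 3′ of TRBC2 every library had a peak. Top folds were 8.46 and 8.02 in GM12878, 9.28 and 6.79 in HEK293T, 6.82 and 9.09 in HFF1, and 4.76 and 5.23 in K562.

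Peaks at other protein-coding genes within the intervals made up a small part. Of 17 such genes, ZNF280B, ABHD4 and DAD1 were marked at a start in all 8 libraries. PRAME, which lies among the lambda V segments, was marked in both libraries of GM12878, HEK293T and K562, with folds of 10.2 and 12.6 in GM12878, 8.36 and 9.74 in HEK293T, and 5.19 and 5.15 in K562. ZNF280A was marked in K562 alone, with 5.48 and 5.29. PRSS2, a trypsinogen gene within TRB, had folds of 12.7 and 10.8 in GM12878 and 3.39 in HFF1 replicate 2. VPREB1, a surrogate light chain gene within IGL, had a fold of 2.75 in K562 replicate 1 alone.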

How the data were processed

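Accessible chromatin was measured by bulk ATAC-seq in 8 human libraries (4 lines, 2 replicates each) and 2 mouse libraries not used here beyond their peak number. The authors deposited 1 peak list per library with a score, a fold (a linear ratio of summit over local background), a −log10 p-value and −log10 q-value per peak, and a summit offset, named in the standard layout since the lists have no header. These per-peak values come from the authors, and each was read only within its own list. The submitters' processing notes name cutadapt 3.2, Bowtie2 2.4.2, Picard and MACS2 2.2.7.1 with no role or order, and the builds hg38 and mm10. Duplicate handling, read shift, the mapping quality limit and the treatment of reads with several places are not given in the sources used here. No peak passed the end of a GRCh38 chromosome. The lowest −log10 q was between 2.00 and 2.05.

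Groups came from the sample labels. The members and lists were chosen with earlier results of these data known. Segments are those of GENCODE release 44. Pileup and background were solved from fold and −log10 p (99.9% of peaks or more in each library). Named landmarks, the strongest region specific to each line, the strongest region called in all 4 lines and the strongest V segments per locus and line were named, and further items were chosen after their values were seen. The named stretches without peaks, V families, summit sides and the CTCF-type core were added after the data had been seen. Exact permutation tests used the 8 libraries, with 12 tests adjusted together. Scripts ran in Python 3.11.15 with scipy 1.17.1 and were tested on simulated data. Peak names of GM12878 carry another prefix than those of the other lines, so prefix and line cannot be told apart. One gene of the recombination list is not reported here, nor are counts over that list. Alternatives were the q limit, list length, thinned pileups, summits, other start sites, covered length, overlap, window and each library left out.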

Additional observations from a re-analysis of the deposited data

How the results depend on the processing

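Of 246 alternative values, 209 kept their direction and their side of the threshold (counts within 1.5 times, shares within the spread). This count includes settings that could not change a value. Every peak of the loci had its summit inside the interval, so the summit setting repeated the main values. V shares use GM12878 libraries alone, so leaving out a library of another line could not move them. Differences of GM12878 from the other lines did not pass as reported, so keeping their side of the threshold says little. The difference of GM12878 from the other lines at IGL, 0.258 as reported, was −0.0303 with peaks near other start sites left out. At IGH the same setting gave 1.14 in place of 1.05, but the exact permutation p went from 0.0714 to 0.393. Both HEK293T libraries then lay above both GM12878 libraries. At IGL, leaving out 1 library gave a range of −0.0333 to 0.633, below 0 without either HFF1 library. With the replicate block (24 splits, smallest exact p 0.0417) the eta squared values of 0.986 at IGH, 0.993 at IGK, 0.993 at IGL, 0.999 at TRA/TRD and 0.986 at TRB no longer passed after adjustment. Deviations of same-numbered replicates correlated between −0.766 and 0.505 over the 6 loci. With 2 libraries per line and 6 loci, this cannot decide whether the replicate numbers pair the libraries. Within HEK293T, HFF1 and K562, whose peak names share a prefix (smallest exact p 0.0667), the values were 0.982 at IGH, 0.992 at IGK, 0.994 at IGL, 0.996 at TRA/TRD and 0.983 at TRB. With that smallest p none could pass. Without HFF1 the value at IGH was 0.939, and without K562 that at IGL was 0.976. Thinned pileups gave 0.993 at IGK and 0.932 at TRB (exact test, adjusted p 0.0571 and 0.0816), and the 50000 strongest peaks 0.937 at TRB (adjusted p 0.114). TRG passed with 0.969 (50000 strongest peaks) and 0.970 (−log10 q of at least 5), and leaving out 1 library gave 0.943 to 0.993.

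GM12878-specific regions fell to 28 in the immunoglobulin and 18 in the T-cell receptor loci with the 50000 strongest peaks, and to 51 in the immunoglobulin loci with thinned pileups. The share of marked immunoglobulin V segments in GM12878 was 18.5% (50000 strongest), 23.8% (thinned), 21.5% (span alone) and 32.3% (span and 1 kb), and 26.9% to 30.8% with 1 library left out. For T-cell receptor V segments these shares were 15.1%, 18.9%, 19.8% and 35.8%, and 28.3% to 32.1%. In both ranges the lower end is the reported share. The upper end comes from leaving out a GM12878 library, where a peak in the 1 library left was enough. Alternatives that restrict the comparison to HEK293T, HFF1 and K562, or leave out both libraries of a line, were chosen after seeing the data. The cause of these shifts was not tested. Depth differs between lines and is known only through the recovered background. Reads at near-identical segments may be placed on the wrong copy.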
